A study of Zea mays subsp. mexicana with 6 samples.

Results

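Among the 184280 unigenes assembled from teosinte seedlings, 122 were high after cold and close to the control after drought, and these unigenes are described here. A unigene is a gene-level cluster of the Trinity assembly, named by its component and a gene suffix, and its level is given in FPKM, the fragments mapped, scaled by unigene length and by the mapped fragments of the library. The members were selected on the measured values: the group mean of log2(FPKM + 1) had to be at least 3 higher in the cold than in the control, the drought mean had to lie within 1 of the control mean, and both cold libraries had to reach an FPKM of 10. Unigenes that the study names by identifier were to be left out, but none of them met these limits. Since cold and drought values chose the members, their differences from the control are given as a description and were not tested. The same cold limits were met by 229 unigenes, of which 106 had a drought difference above 1 and 1 had a drought difference below -1.

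Seedlings of the teosinte Zea mays ssp. mexicana cultivar 8493, a wild relative of maize, were 13 days old when they were sampled, and had been grown with 10 h of light and 14 h of darkness. The control was kept at 25°C, the cold group was held at 4°C for 12 h, and the drought group stood for 3 h in a nutrient solution with 20% PEG2000, a polymer that lowers the water potential. Roots, stems and leaves of at least 3 seedlings were pooled in each sample, and each condition had 2 libraries. The clock time of collection is not given in the sources used here, so a difference in temperature, in treatment length and in time of day cannot be told apart in any cold value below. In such pooled tissue a change in the cells present cannot be told apart from a change in RNA per cell either.

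Plants of temperate origin answer low, non-freezing temperature by rebuilding their gene expression within hours. Calcium influx and C-repeat binding factors of the AP2 family start part of this program, and the circadian clock gates it. Starch is broken down to maltose and other soluble sugars, which protect membranes and proteins, and beta-amylases carry out the step that releases maltose. Jasmonate, a hormone made from membrane lipids by lipoxygenases, acts by removing the JAZ repressors of the TIFY family, whose own genes are among its targets. The study describes this teosinte as very cold-sensitive, above all when young, although most of its lines come from high altitude in Mexico.

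The libraries had sums of FPKM between 967046 and 993409, and Pearson's r of log2(FPKM + 1) between the replicates of a group lay between 0.950 and 0.956 across the tested unigenes. The deposited values are FPKM without read counts, so the number of reads behind a single value is unknown. Leaf photosynthesis markers, 18 unigenes with 3 or 4 at 0 in each library, summed to 17951 and 18570 FPKM under control conditions, 17460 and 21101 under cold and 11727 and 11798 under drought, so that control and cold overlapped and drought lay below both. Root markers annotated in tables that were not chosen by expression, 42 unigenes with 11 to 14 at 0, summed to 1475 and 1675 under control conditions, 1259 and 1373 under cold and about 1413 in both drought libraries, and limma called 1 of the 20 tested higher in the cold. The cold sums of these 42 lay below the control sums. Over all 47 root markers, the 5 of the cold list included, the sums were 1485 and 1688 for the control and 1350 and 1499 for the cold, which overlap, and 5 of 25 tested were called higher in the cold. The part of this in the members' values was not tested. The median log2 difference between cold and control over the 38768 tested unigenes was -0.18 and moved to 0.00 with median-of-ratios scaling, a shift that is small beside the differences of the members.

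The median member had an FPKM of 1.08 under control conditions, 28.3 under cold and 1.55 under drought, each taken over group means. Cold means reached from 10.3 to 2229 FPKM, with 22 members at 100 or more and 44 below 20. In the control 55 members had a mean under 1 FPKM and only 11 had a mean of at least 10. The median difference between cold and control was 3.53 on the log2 scale, against -0.18 over all tested unigenes, and the highest was 6.93. A difference of at least 4 was found in 29 members, and one of at least 5 in 8. The heat map of all members shows the cold libraries apart from the other libraries in every row, which the selection required.

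**Figure D1:**
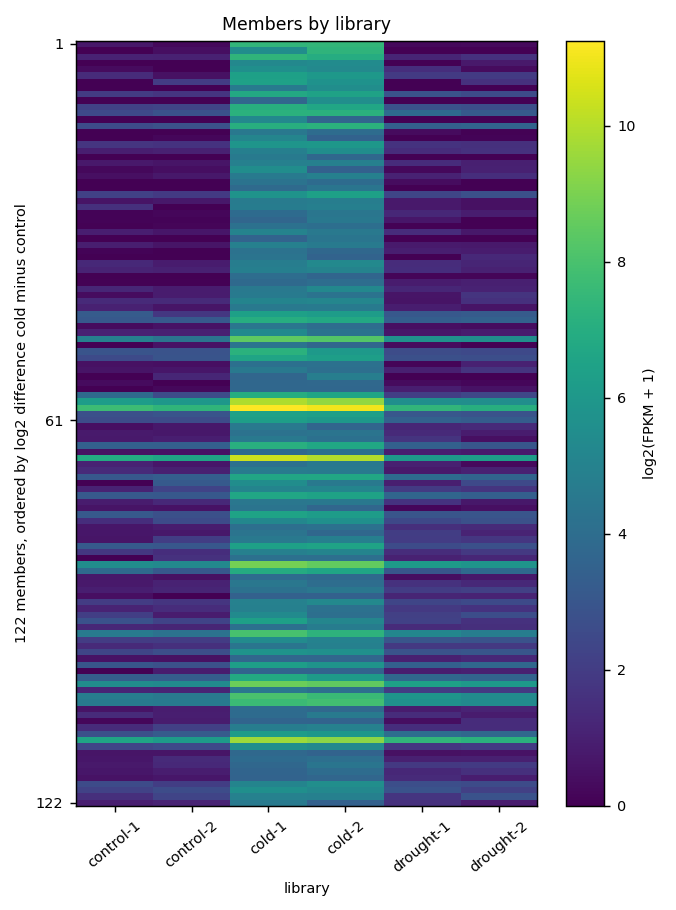
Level of the 122 members in the 6 libraries, as log2(FPKM + 1) on the colour scale. Rows are members ordered by the log2 difference between cold and control, from 6.93 at the top to 3.01 at the bottom, and columns are libraries. The brightest rows in the cold are beta-amylase unigenes, and most rows are dark in the control and drought libraries.

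In total the members took 0.0947% and 0.0818% of the FPKM of the control libraries, 1.24% and 1.05% of that of the cold libraries and 0.114% and 0.102% of that of the drought libraries. The 4 beta-amylase unigenes alone held 44.9% and 41.9% of the members' FPKM in the cold libraries, and the 4 TIFY unigenes held 9.81% and 9.41%. These shares were higher in the control libraries, at 53.5% and 49.4% for beta-amylase and 11.8% and 11.0% for TIFY. In the drought libraries they were 40.7% and 40.4% for beta-amylase and 16.5% and 15.4% for TIFY. A few abundant unigenes thus carried much of the summed level, while most members were of modest level even in the cold.

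The largest group by level was starch breakdown. Of the 4 beta-amylase unigenes, c62962_g1, c59418_g6 and c59418_g3, matched beta-amylase 3, a plastid enzyme. c62962_g1 was the most abundant member, at 211 and 165 FPKM in the control libraries, 2431 and 2027 under cold and 169 and 132 under drought. Its mean was 11.9 times the control mean in the cold, a log2 difference of 3.56. c59418_g6 stood at 115 and 94.4 under control conditions, 1362 and 997 under cold and 64.0 and 75.0 under drought. All 3 showed the same order, since c59418_g3 was at 72.4 and 60.5 under control conditions, 963 and 688 under cold and 47.4 and 45.4 under drought. For both c59418 unigenes the drought libraries lay below the control libraries without overlap, by 0.58 and 0.50 on the log2 scale, whereas drought and control overlapped in c62962_g1. The hits of c62962_g1 and c59418_g6 name the same maize locus, LOC100502394, so the members may not be separate genes.

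The hits of the other beta-amylase unigene, c62592_g3, name both inactive beta-amylase 9, a protein that lacks catalytic activity in Arabidopsis, and beta-amylase 3, so they do not settle which it is. It was at 92.9 and 70.6 FPKM under control conditions, 765 and 622 under cold and 169 and 145 under drought. Here the drought libraries lay above the control libraries, by 0.94 on the log2 scale, close to the upper limit of the selection. c62592_g5, a beta-amylase 1 unigene that is not a member, was at 20.1 and 19.3 under control conditions, 76.7 and 68.3 under cold and 286 and 232 under drought. Its drought difference was 3.64 ± 0.14 (SE) with an adjusted p of 0.000357, and its cold difference was 1.83 ± 0.14, under the fold limit of the calls. Of the unannotated unigenes of this component, c62592_g1 was listed at 0 in all control and cold libraries and at 44.3 and 63.2 under drought. c62592_g2 and c62592_g6 were likewise at 0.29 FPKM or less in control and cold and between 49.5 and 64.7 under drought. In this component the member was therefore highest in the cold, while the other 4 named unigenes were highest in the drought and all were called higher there.

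**Figure D2:**
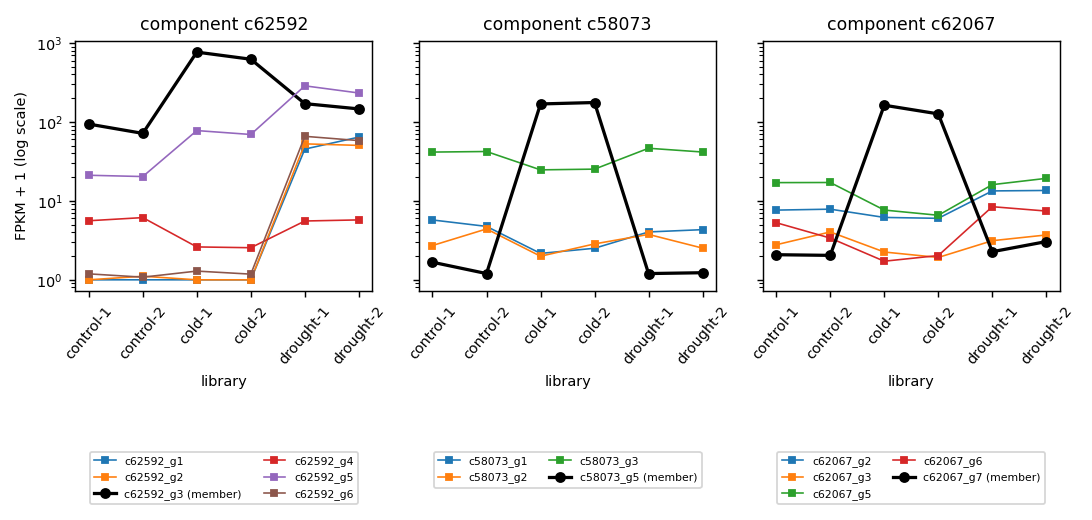
FPKM + 1 on a log scale in the 6 libraries for tested unigenes of the components c62592, c58073 and c62067, with the member as a thick black line and the other unigenes as thin lines with squares. In c62592 the member peaks in the cold at 765 and 622 FPKM, and 4 other unigenes peak in the drought. In c58073 and c62067 only the member is far higher in the cold.

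Other members act in sugar metabolism and transport. c27649_g1, a sucrose-phosphate synthase, the enzyme that commits hexose phosphates to sucrose, was at 0.70 and 0.92 FPKM under control conditions, 22.4 and 16.9 under cold and 2.23 and 0.36 under drought. It is the remaining member of the sugar list and was named after its values were seen. c59905_g1 matched nodulin MtN3, the founder of the SWEET sugar exporters, and was at 5.74 and 6.68 under control conditions, 85.8 and 80.4 under cold and 7.21 and 6.44 under drought. In both unigenes the ranges of the drought and control values overlapped, and only the cold values stood apart.

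Other unigenes of the sugar list were counted without the members. Only part of the assembly has annotation here, from tables that were not chosen by expression and from a list of unigenes that the study had called higher in the cold, which is not independent of the direction. Under the limma fit a unigene was called when its log2 fold change was at least 2 in size and its adjusted p under 0.005. Among the tested sugar unigenes, 1 of 20 from the former tables and 10 of 16 from the cold list were called higher in the cold. Over all annotated unigenes that are not members, 1.56% of the former and 51.7% of the latter were called higher, and 1.4% of the former lower. The most changed of these, c45624_g2, a trehalose-phosphate phosphatase, which makes the sugar trehalose, was at 7.01 and 7.12 FPKM under control conditions, 129 and 130 under cold and 89.8 and 80.0 under drought. The next, c63782_g3, a vacuolar invertase, which splits sucrose, was at 9.90 and 13.1, 83.0 and 66.0, and 266 and 282. Both unigenes had drought differences above 1, at 3.41 and 4.47, and so lay outside the limits of the members.

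TIFY proteins are encoded by 4 members, the family of the JAZ repressors of jasmonate signalling. c62607_g4, with a tify domain hit, was at 45.4 and 38.1 FPKM under control conditions, 469 and 374 under cold and 68.4 and 55.3 under drought. c54476_g7, a TIFY 10A unigene, was at 28.4 and 18.9, 353 and 299, and 48.9 and 44.3. c54476_g8, whose hits include TIFY 3B and TIFY 10A, was at 27.5 and 22.4, 258 and 194, and 55.5 and 41.9. In each of them both drought libraries lay above both control libraries, by 0.55, 0.98 and 0.93 on the log2 scale, so the label of a response to cold alone fits them only within the limit of 1. c63321_g4, a TIFY 6A-like unigene, was nearer to the control in drought, at 7.68 and 7.72 under control conditions, 127 and 108 under cold and 9.28 and 10.3 under drought. Apart from c63321_g4, all of them name the maize locus LOC100191257 among their hits, known as TIFY15 in the RefSeq table, so they may not be separate genes.

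The remaining jasmonate member, named after its values were seen, was c40245_g1, with the maize names lipoxygenase 7 and tasselseed 1b, at 0.73 and 1.12 FPKM under control conditions, 20.7 and 15.0 under cold and 2.00 and 1.46 under drought. Maize tasselseed 1 is a lipoxygenase of jasmonate synthesis that acts in the tassel. Among the other jasmonate unigenes 4 of 30 tested in the tables not chosen by expression were called higher and 2 lower, and 9 of 12 in the cold list were called higher. The strongest was a TIFY 10A unigene, c61276_g1, at 7.26 and 12.6 under control conditions, 105 and 77.6 under cold and 87.8 and 51.9 under drought. After it came c62969_g1, an oxophytodienoate reductase, an enzyme family of jasmonate synthesis, at 10.1 and 8.49, 72.8 and 91.2, and 30.2 and 22.0. Both were higher than the control in drought by over 1 on the log2 scale, at 2.69 and 1.39, and so lay outside the limits set for the members. The 2 unigenes called lower in the cold were oxophytodienoate reductases as well. c50027_g1 was at 158 and 101.5 FPKM under control conditions, 25.7 and 25.4 under cold and 50.4 and 58.6 under drought. c62969_g3, in the component of c62969_g1, was at 53.5 and 32.5, 9.95 and 8.81, and 17.4 and 22.7. Reductase unigenes thus moved in both directions.

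Unigenes of the clock and of light signalling made up another group of members. Cycling Dof factors repress the flowering regulator CONSTANS in Arabidopsis, and their removal there needs FKF1, also called adagio protein 3. c53662_g2 matched DOF5.5, the Arabidopsis factor CDF1, and was at 3.49 and 3.95 FPKM under control conditions, 133 and 101 under cold and 6.21 and 5.54 under drought. c51306_g1 matched DOF5.2, the Arabidopsis factor CDF2, at 2.86 and 2.29, 110 and 87.8, and 6.43 and 4.88. c50559_g2, with hits to DOF40 and DOF5.2, was at 7.88 and 7.64, 100.2 and 87.5, and 11.6 and 9.63. The cold levels of the 3 Dof unigenes were thus similar, while their control levels differed, and the log2 differences were 4.63, 4.80 and 3.43. Another Dof unigene, c46731_g1, fell outside the list by its wording and was named after its values were seen. It was at 7.57 and 9.16 under control conditions, 98.5 and 102 under cold and 14.4 and 11.2 under drought. Members share a maize locus in their hits: c53662_g2 with c51306_g1, at LOC100275712, and c50559_g2 with c46731_g1, at LOC100275567. The unigenes of each pair may therefore not be separate genes. In all 4 unigenes both drought libraries lay above both control libraries.

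The B-box unigene c63681_g1, a salt tolerance protein of light signalling, was the member with the lowest drought difference, -0.95. It was at 13.3 and 4.89 FPKM under control conditions, 126 and 97.6 under cold and 3.22 and 4.31 under drought. The 2 control libraries differed here more than the drought libraries did. The other members of this list were named after their values were seen. c62286_g1, a CONSTANS-like zinc finger unigene, was at 5.07 and 5.13 under control conditions, 77.5 and 63.5 under cold and 10.2 and 8.81 under drought. c64467_g1 matched adagio protein 3, the blue-light receptor that marks cycling Dof factors for degradation in Arabidopsis, at 1.47 and 0.82, 26.2 and 37.7, and 1.70 and 1.25. Unigenes for the Dof factors and for their regulator were therefore both among the members.

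Of the other clock and light unigenes, limma called 8 of 15 higher in the cold list and 0 of 6 in the tables not chosen by expression, where 0 also passed at the same fold limit and an unadjusted p under 0.05. c63424_g1, a MYB-domain unigene of this list, was at 1.0 and 1.43 under control conditions, 28.5 and 26.9 under cold and 6.30 and 4.95 under drought. c44298_g2 matched phytoclock 1, an evening component of the Arabidopsis clock, and was at 0.08 and 0 under control conditions, 9.69 and 10.8 under cold and 0 and 0.08 under drought. It missed membership only because cold-1 was under 10 FPKM.

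**Figure D3:**
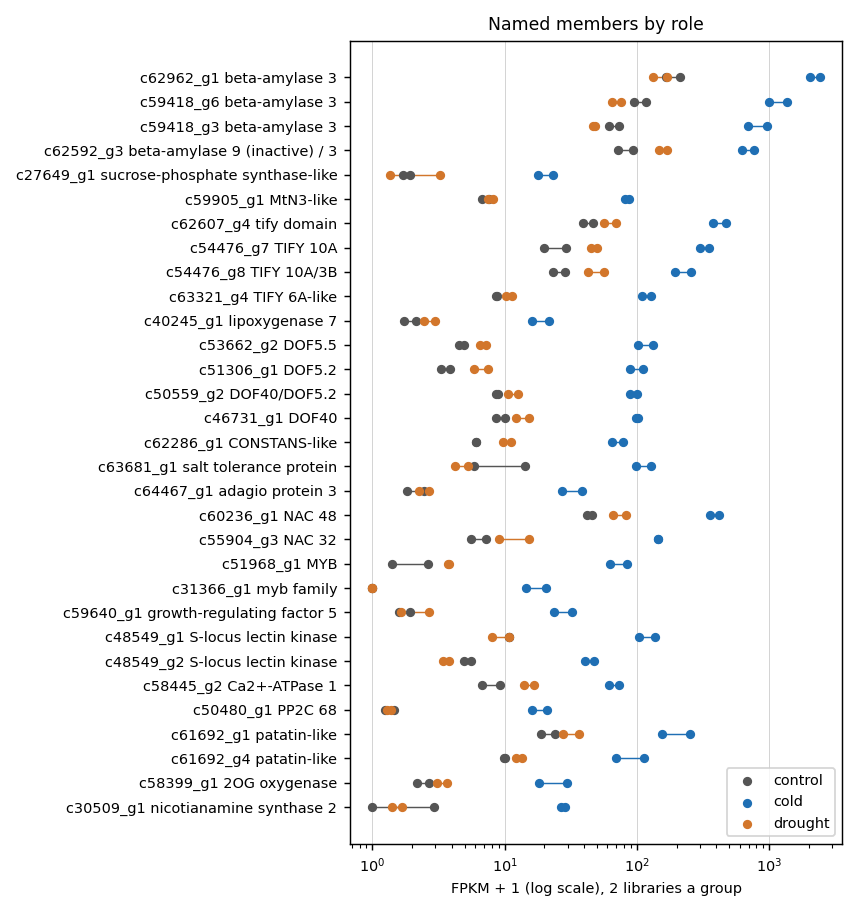
FPKM + 1 on a log scale for 31 members named by role, with 2 points a group joined by a line, grey for control, blue for cold and orange for drought. From the top the roles are sugar, jasmonate, clock and light, transcription factors, signalling and metabolism. In every row the cold points stand apart, and in the TIFY and Dof rows the drought points lie above the control points.

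The NAC family of plant transcription factors gave 2 members. c60236_g1, NAC domain-containing protein 48 by its hit, was at 45.2 and 41.0 FPKM under control conditions, 418 and 358 under cold and 81.9 and 64.9 under drought. c55904_g3, matching NAC domain containing protein 32, was at 4.58 and 6.18, 142.8 and 142.8, and 14.4 and 8.02, a cold log2 difference of 4.51. Both were also above the control in both drought libraries, by 0.75 and 0.90 on the log2 scale. The cold list held 14 further NAC unigenes, of which 8 were called, with c40260_g1 at 6.42 and 3.20, 56.2 and 67.5, and 11.8 and 12.2, and c47289_g2 at 18.8 and 19.8, 124 and 189, and 31.8 and 29.9. The hits of c40260_g1 and of the member c55904_g3 name the same maize locus, LOC100384376, so they may not be separate genes. In the other tables limma tested 3 and 1 was called higher.

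MYB-related factors also gave 2. c51968_g1 had one of the largest differences, 5.24, at 1.62 and 0.40 FPKM under control conditions, 82.6 and 62.0 under cold and 2.79 and 2.71 under drought. c51968_g3 of the same component is also a member, without a database hit, and was listed at 0 in both control libraries, at 15.4 and 11.8 under cold and at 0.11 in both drought libraries. c31366_g1, a myb family unigene, was listed at 0 in all control and drought libraries and at 13.6 and 19.4 in the cold. Of the other MYB unigenes 7 of 10 in the cold list and, elsewhere, 1 of 17 were called higher. c61418_g2 was higher in the cold by 6.26 ± 0.27 (SE), at 1.21 and 2.52 under control conditions and 216 and 210 under cold, with a drought difference of 1.60. The growth-regulating factor c59640_g1, of a family active in growing leaves, was at 0.92 and 0.58 under control conditions, 31.5 and 22.5 under cold and 1.69 and 0.65 under drought. Members thus came from several families of transcription factors, but none came from the DREB, ERF and AP2 list or the WRKY list. In the cold list of those families 9 of 17 and 9 of 13 were called higher. In the tables not chosen by expression limma called 0 of 11 and 0 of 1 higher, with 0 also at the same fold limit and an unadjusted p under 0.05, and 1 of the 11 lower. The strongest of the former, c57018_g4, a DREB1A-like unigene, was at 8.23 and 2.71 under control conditions, 77.9 and 129 under cold and 30.1 and 30.4 under drought, a drought difference of 2.42 that lies outside the limits of the members. In the WRKY list c54015_g1, a WRKY 11 unigene, was at 0.05 and 0.10, 6.72 and 11.7, and 0.35 and 0.21. Its log2 differences were 3.20 under cold and 0.25 under drought, and it missed membership only because cold-1 was under 10 FPKM. The next WRKY unigene, c38115_g1, had a cold difference of 3.09 and a drought difference of 1.36, outside the limits.

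Signalling members were fewer. c48549_g1 and c48549_g2 matched S-locus lectin receptor kinases, membrane proteins with an outer sugar-binding domain. The former was at 9.81 and 9.75 FPKM under control conditions, 136 and 103 under cold and 9.83 and 7.08 under drought, and the latter at 3.90 and 4.57, 46.3 and 39.6, and 2.42 and 2.78. They belong to the same component and kept the same order of the group means. c58445_g2, an autoinhibited Ca2+-ATPase that pumps calcium out of the cytosol, was at 5.76 and 8.27 under control conditions, 72.5 and 60.4 under cold and 15.8 and 13.1 under drought. c50480_g1 matched a protein phosphatase 2C, a family in which some members hold abscisic acid signalling in check, and was at 0.25 and 0.47, 20.1 and 15.0, and 0.38 and 0.30. This phosphatase stayed near 0 in drought, whereas the phosphatases c52482_g3 and c52482_g6 of the same list, which are not members, had drought differences of 4.86 and 5.03. c52482_g3 was at 2.99 and 3.22 under control conditions, 100.1 and 94.2 under cold and 131 and 106 under drought. c52482_g6 was at 4.44 and 5.70, 138 and 125, and 227 and 169. In the cold list 11 of 13 tested unigenes of the abscisic acid and phosphatase list were called higher in the cold, and in the other tables limma called 0 of 2, with 0 also at the same fold limit and an unadjusted p under 0.05. For calcium the counts were 27 of 33 and 2 of 16, and for receptor kinases and immune proteins 25 of 45 and 1 of 29. Under drought 7 of the 13 and 8 of the 33 were called higher, where 47 of the 426 tested unigenes of all role lists in the cold list were. The calcium unigenes were led by c61291_g1, a calmodulin-like protein, at 0.61 and 0, 23.5 and 15.1, and 23.3 and 26.7.

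There were 3 members in the list of lipid and specialized metabolism. Patatin-like proteins release fatty acids from membrane lipids. c61692_g1 was at 23.1 and 18.0 FPKM under control conditions, 253 and 153 under cold and 35.6 and 26.5 under drought, and c61692_g4 at 8.98 and 9.08, 111 and 68.7, and 12.7 and 11.2. A further patatin unigene of the component, c61692_g2, was far more abundant and called higher, at 360 and 208 under control conditions, 1171 and 1072 under cold and 313 and 304 under drought, a difference of 2.03 ± 0.25 (SE). Since the unigenes of a component can share sequence, reads could be divided between them. c58399_g1, a 2-oxoglutarate-dependent oxygenase, was at 1.17 and 1.69, 28.4 and 17.3, and 2.69 and 2.09. c30509_g1, nicotianamine synthase 2, which makes a chelator of iron and zinc and belongs to the root list, was at 1.91 and 0 under control conditions, 25.8 and 27.9 under cold and 0.69 and 0.40 under drought. Transposon-related hits were found for c61171_g1, at 1.27 and 1.20, 21.0 and 16.4, and 2.84 and 2.70, and for c54491_g2, at 0.53 and 0.87, 14.3 and 12.9, and 0.80 and 1.17. In the lipid list 28 of 43 other unigenes of the cold list were called higher, and in the tables not chosen by expression 2 of 51 were called higher and 1 lower. No member fell in the lists of dehydrins and LEA proteins, heat shock proteins, the cell wall, MAP kinases, polyamines, ubiquitin ligases and proteases or other hormones. Each list held higher calls in the cold list, from 7 of 9 dehydrins and LEA proteins to 14 of 30 ubiquitin ligases and proteases. In the tables not chosen by expression the same lists had 2 of 7 and 0 of 60. The 0 also held at the same fold limit and an unadjusted p under 0.05, and 2 of the 60 were called lower. The MAP kinase unigenes c59381_g1 and c56807_g1 had cold differences of 3.38 and 3.10. Their drought differences of 1.09 and 1.16 lay just outside the limits.

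A few annotated members outside the lists were named after their values were seen. c52842_g4, an AAA-ATPase, was at 4.93 and 5.92 FPKM under control conditions, 131 and 143 under cold and 9.99 and 11.3 under drought. c32985_g1, an IAA-amino acid hydrolase that frees auxin from its conjugates, was at 6.98 and 5.95, 77.1 and 56.4, and 9.77 and 12.5. Although auxin is a hormone, this unigene fell outside the list of other hormones by the wording of its hits. c61436_g1, a phosphatase named for phosphate starvation, was at 4.93 and 3.07, 32.2 and 46.4, and 5.54 and 4.98. In all 3 the cold libraries were the highest by far.

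Database hits were held for 62 of the 122 members, and 41 of them carried a descriptive name. Of the other 60 members, 52 appear in the list of cold-induced unigenes without a hit and 8 in no annotation table held here. In that list 54.4% of the members had a hit, against 69.4% of the other unigenes. The members without a hit had a median cold mean of 22.4 FPKM and a median control mean of 0.59, and those with a hit had 36.5 and 2.55. Yet 8 of the 10 largest differences belonged to unigenes with no hit.

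The largest difference of all, 6.93, was that of c58073_g5, which was at 0.67 and 0.20 FPKM under control conditions, 168 and 175 under cold and 0.20 and 0.23 under drought. c62067_g7, with 6.12, was at 1.08 and 1.04, 162 and 125, and 1.27 and 2.05. Both lie in components whose other tested unigenes did not follow them: c58073_g3 was at 40.5 and 41.2 under control conditions, 23.7 and 24.2 under cold and 45.4 and 40.6 under drought, and c62067_g5 at 16.0 and 16.1, 6.65 and 5.57, and 15.1 and 18.3. Their cold differences were -0.74 and -1.27, against the opposite sign in the member. c45731_g1, with 6.22, was less even, at 0 and 0.34 under control conditions, 45.2 and 160 under cold and 0 in both drought libraries. c52982_g3 was at 0.24 and 0, 47.0 and 38.6, and 1.78 and 0.24, and c53311_g3 was listed at 0 in both control libraries, at 37.4 and 42.0 under cold and at 0 and 0.70 under drought. c53311_g3 shares its component with c53311_g4, which is not a member and was called higher in the cold by 2.74 ± 0.16 (SE). c29845_g1 was at 0 and 3.01, 84.9 and 51.7, and 0 and 2.00. c40549_g1, at 23.3 and 44.2 under cold, and c7388_g1, at 12.3 and 46.1, were listed at 0 in every control and drought library. No fold is given for unigenes listed at 0 in a group.

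In all, 11 members were listed at 0 in both control libraries, 8 in both drought libraries and 6 in all 4 of them. A further 14 members were at 0 in 1 control library. The table is rounded to 2 decimals and gives no read counts, so these entries cannot be separated from a level too low to show.

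The 2 cold libraries differed by under 1.25-fold in 56 members. A difference of over 2-fold was seen in 11 members, 9.02%, against 1.04% of the 12926 tested unigenes that reached 10 FPKM in both cold libraries. Among these 11 were c45731_g1 and c7388_g1, higher in cold-2, and c64357_g5, a glycosyltransferase, at 45.0 in cold-1 and 10.1 in cold-2. Higher values in cold-1 were found in 72 members, 59.0%, and in 56.0% of the comparison unigenes.

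**Figure D4:**
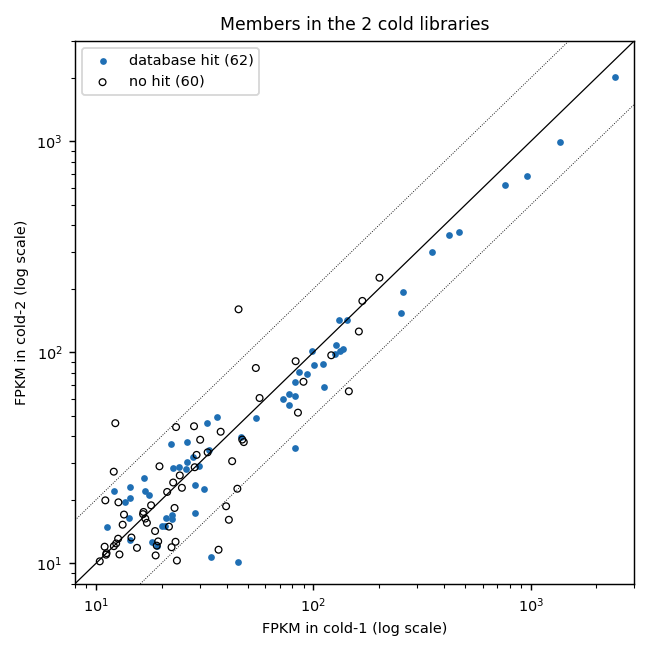
FPKM of the 122 members in cold-1 and cold-2 on log scales, filled for the 62 members with a database hit and open for the 60 without. The solid line marks equal values and the dotted lines a 2-fold difference, which 11 members exceed.

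The limma fit, over the 38768 tested unigenes, called 116 members higher in the cold than in the control, against 2.16% of all tested unigenes. It called 111 members higher in the cold than in the drought, against 1.81%. In all 122 members both cold libraries lay above both control libraries, as in 28.1% of the tested unigenes. The selection used these contrasts, so nothing is read from the counts. All members passed the filter on a mean FPKM of at least 1, but only 73 would have passed on the control and drought libraries alone. The 6 members without a call had SEs between 0.50 and 1.09, above the median of 0.25 among the called members. They include, chosen after their values were seen, c46313_g3, at 0 and 8.18 under control conditions and 44.7 and 22.5 under cold, and c61011_g1, at 3.29 and 0.82 and at 40.8 and 16.1. Over all tested unigenes 838 were called higher and 432 lower, and with median-of-ratios scaling 1075 and 299, and with a pseudocount of 0.1 they were 754 and 635. The calls rest on all 6 libraries: with any 1 of them left out, limma called 0 unigenes and 0 members in cold against control, although 1902 to 2323 unigenes and 121 or 122 members still had a log2 difference of at least 2 with an unadjusted p under 0.05.

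How far the members were unaffected by drought was read from the libraries. The drought difference had a median of 0.29 on the log2 scale, was above 0 in 83 members and below 0 in 33, and was 0.01 over all tested unigenes. In 53 members both drought libraries lay above both control libraries, against 27.8% of the tested unigenes, and in 10 both lay below, against 24.6%. Cold and drought were set against the same control libraries and the selection bounded the drought difference, so these counts describe the members and test nothing. A drought difference of at least 0.5 was found in 43 members, and one of -0.5 or lower in 6. The label of a response to cold alone thus holds within the limits of the selection, and for the Dof, NAC and TIFY members the drought level was above the control level by up to that limit.

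**Figure D5:**
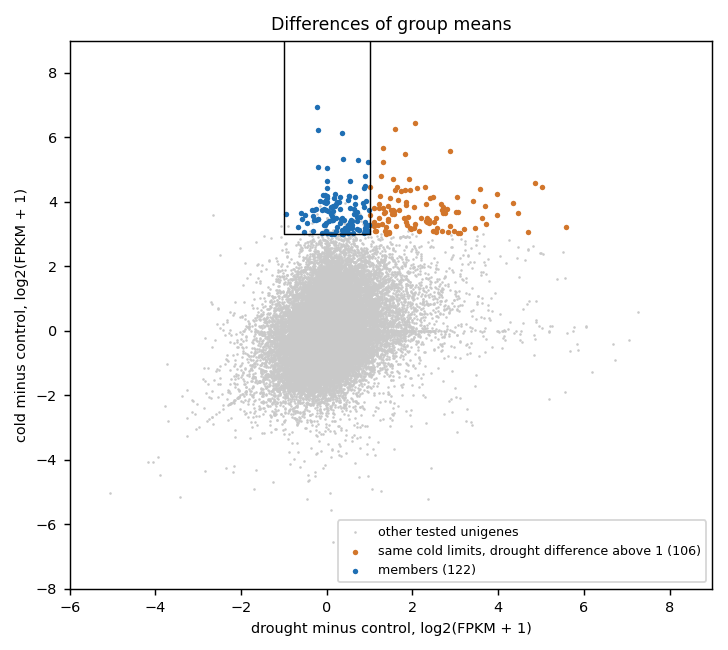
Difference between cold and control against difference between drought and control, both of group means of log2(FPKM + 1), for the tested unigenes. Blue points are the 122 members inside the drawn limits, orange points the 106 unigenes with the same cold limits and a drought difference above 1, and grey points all others. The blue and orange points form 1 continuous cloud across the limit.

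Values just at the limits show that the borders were not gaps. The smallest cold differences inside were 3.01 for c63659_g4, c26645_g1 and c59101_g2, and just outside stood c48060_g1 at 2.99, c63122_g5 at 2.99 and c63225_g3, a chitinase, at 2.97. At the upper drought limit c55005_g1 had 0.99, c54476_g7 0.98 and c51968_g1 0.97, while c38466_g1 had 1.01, c59392_g2 1.01 and c58912_g1 1.02. The lower limit was more open, with c63681_g1 at -0.95, c57528_g3 at -0.67 and c40671_g1 at -0.61 inside and c62460_g1 at -2.66 outside. By the lower cold FPKM, c64357_g5 at 10.1, c57140_g4 at 10.2 and c63659_g4 at 10.3 were inside, and c52078_g3 at 9.96, c64539_g3 at 9.96 and c56057_g3 at 9.86 were outside.

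The members lay in 115 assembly components, 7 of which held 2 members. These components had 209 further unigenes, of which 138 were tested. Of the tested ones 15 were called higher in the cold, 10.9% against the 2.16% of all tested unigenes, and limma called 0 lower, against 1.11%, with 0 also at the same fold limit and an unadjusted p under 0.05. Most of them did not follow the member: 82 had a cold difference between -1 and 1, 44 a difference of at least 1 and 12 one of -1 or lower. In the drought 4 were called higher, 2.9% against 0.725%, and all 4 were the unigenes of the beta-amylase component c62592 described above. Unigenes of a component can share sequence, so these counts are a description.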

How the data were processed

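The 6 libraries were paired-end RNA-seq of teosinte seedlings, 2 for each of 3 conditions. From the filtered reads of all libraries the authors built a Trinity assembly, to which each library was mapped (Bowtie 1.1.1, RSEM), and they deposited FPKM values, rounded to 2 decimals. No genome build is involved, and the values have no scaling between libraries beyond FPKM, so a few abundant unigenes can shift the rest.

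Differences are of group means of log2(FPKM + 1). Unigenes averaging 1 FPKM or more, 38768 in all, were fitted with limma 3.58.1 (R 4.3.3) in 1 fit of the 6 libraries, with variances moderated along a mean trend. On this scale the change of unigenes of low FPKM is understated. A call required 2 log2 units or more in either direction and, over all tested unigenes, a p adjusted by Benjamini-Hochberg under 0.005. The results section of the study gives these thresholds, for a different test, whereas its methods section gives a fold limit of 2. A count test was not used because the values are FPKM. An exact two-sided permutation test of 2 against 2 libraries cannot go below p = 0.333. On simulated data with 38768 unigenes for cold against control, 36 of 50 unigenes changed by 3 log2 units and 14 of 50 changed by 2 were called, with 1 unchanged unigene. The changed unigenes were drawn only from control levels above those of most members, and the noise was normal. These rates therefore do not cover members near 0 in the control. Python 3.11.15 and pandas 2.3.3 served for the tables. The labels do not say whether replicates came from separate cultures, so p-values measure the spread between these samples.

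Members, role lists and tests were chosen with earlier results of these data known. Annotation is by hit names in the study's supplement, held in part; 25 of 34 maize loci named in members' hits were found in the RefSeq table of Zm-B73-REFERENCE-NAM-5.0. Named are the 10 members with the largest cold difference, the 4 of highest cold FPKM in each role list, 3 unigenes on each side of a limit, and of other unigenes the 2 most changed calls in the lists described and neighbours in the component of a named member; exceptions are stated. Sequences were not used here.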

Additional observations from a re-analysis of the deposited data

How the results depend on the processing

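The number of members was 122 and lay between 108 and 200 when 1 library was left out; without cold replicate 2 it was 200, of which 113 were among the 122. It was 138 with a pseudocount of 0.1 (88 shared), 167 with median-of-ratios scaling (122 shared) and 150 with a cold minimum of 5 FPKM. Of the 34 members lost with the pseudocount of 0.1, 31 then had a drought difference above 1. In all, 72 members were kept whichever library was left out, and 61 of these also with the other pseudocount and scaling. Among the members named by role, those kept in all of these settings include c62962_g1, c59418_g6, c59418_g3, c62607_g4, c63321_g4, c53662_g2, c50559_g2 and c60236_g1. Those lost when some library was left out include c62592_g3, c54476_g7, c54476_g8, c51306_g1, c63681_g1, c55904_g3, c51968_g1, c48549_g2, c58445_g2, c61692_g1 and c61692_g4.

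Cold against control gave 1270 calls, drought against control 304 and cold against drought 1427. With no filter on low FPKM, limma called 0, 0 and 46, and 0 members and 0 unigenes of the role lists, against 116 and 279; at an unadjusted p under 0.05 and a log2 difference of at least 2 the counts were 1892, 710 and 2036, with 122 members and 320 role-list unigenes. With 1 library left out, the first 2 comparisons gave 0 calls (1902 to 2323 and 710 to 1032 at that unadjusted level), cold against drought 0 to 554, members 0 (121 to 122) and role lists 0 (302 to 321). The cause was not tested. The share of higher calls in cold against control was 66.0%, 54.3% with a pseudocount of 0.1 and 78.2% with median-of-ratios scaling; in cold against drought it was 49.1%, 39.2% and 64.0%.

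With the replicate number as a block the counts were 812, 167 and 926, with 99 members and 231 role-list unigenes. Deviations of same-numbered libraries correlated at -0.03 (control and cold), -0.01 (control and drought) and 0.04 (cold and drought), so no effect shared by replicate number was seen. Whether same-numbered samples were grown or processed together is not given.

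Both drought libraries lay above both control libraries in 53 members, and in 52 with median-of-ratios scaling, an alternative chosen after seeing the data.

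The 44 members named by rank or at a limit had log2 differences between 2.45 and 8.66 under each pseudocount, scaling and left-out library. Members named after their values were seen are not among the 44. The selection required a difference of at least 3, so the positive sign tests nothing. A difference of at least 3 remained in 38 without control-1, 40 without control-2 and 32 without cold-1. It remained in all 44 under the other settings.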

Other observations

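A single unigene met the cold limits and was lower in drought by more than 1 on the log2 scale. c62460_g1, without a descriptive hit, was at 20.4 and 13.6 FPKM under control conditions, 181 and 250 under cold and 1.62 and 1.95 under drought, with log2 differences of 3.60 under cold and -2.66 under drought.

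Some unigenes beside the members were high in 1 cold library alone. c52982_g4, in the component of the member c52982_g3, was at 283 FPKM in cold-1 and 0.61 in cold-2, with 0.13 and 0.68 under control conditions and 1.76 and 0.25 under drought. Its cold difference was 3.96 ± 2.22 (SE), and limma did not call it (adjusted p of 0.209). c45731_g2, in the component of c45731_g1, was at 14.2 in cold-1 and 0.16 in cold-2, whereas c45731_g1 itself was higher in cold-2.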
